A study of Mus musculus with 6 samples.

Results

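Mouse T cells that had received conditioned medium rich in placental growth factor (PlGF) were compared directly with T cells that had received interleukin-6 (IL-6), on 4 of the 6 arrays of the series. The 4 arrays were chosen by the treatment given in their labels: PlGFCM replicates 1 and 2 on the one side, IL6_ConCM replicates 1 and 2 on the other. All cells were splenic CD4+ T cells taken out with magnetic beads, cultured in RPMI medium with 10% serum, and activated for 12 hours by antibodies to CD3 and CD28 at 1 μg/ml. PlGFCM is medium from clones of HEK-293, a human embryonic kidney line, that overexpressed the PlGF2 form. The IL6_ConCM cells received IL-6 at 20 ng/ml on top of control conditioned medium. The remaining 2 arrays, ConCM, are of cells in control conditioned medium with no IL-6; their levels are given as a description and entered neither the difference nor its error. No genotype, strain, age, sex or number of animals is given in the labels.

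The groups differ in the medium as well as in the IL-6, so PlGF itself and anything else by which the medium of the PlGF2 clones differed from control medium cannot be told apart. IL-6 binds IL-6 receptor α and gp130, activates the JAK kinases and STAT3, and turns on the feedback inhibitor Socs3. In CD4+ T cells it is best known for steering cells to the Th17 fate together with TGF-β. PlGF is a relative of VEGF that binds Flt1 and neuropilin-1. TGF-β and BMP ligands signal through SMAD proteins, which induce their own inhibitors, among them Smad7, Skil and Pmepa1. In hepatocytes both arms, IL-6 through STAT3 and BMP through SMAD1, SMAD5 and SMAD8, switch on Hamp, the gene of the iron hormone hepcidin.

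Levels are log2 values per probe set, with 1 probe set for each of 22180 genes. A difference is the PlGFCM mean minus the IL6_ConCM mean, so 1 unit is a 2-fold change and a positive value means higher in PlGFCM. Values of a group are given in the order replicate 1, replicate 2. A gene passed where its Benjamini-Hochberg adjusted p from limma over all 22180 genes was under 0.05. With 2 arrays on each side, an exact two-sided permutation test can reach no p below 1 in 3. Nothing in the labels states that the replicates are different animals or cultures, and the spread behind the p-values may thus not be that between animals.

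The arrays of a group were not more alike than arrays of different groups. Pearson's r across genes (22180 points that are not independent) was 0.9942 between the PlGFCM arrays, 0.9951 between the IL6_ConCM arrays and 0.9944 to 0.9951 between groups. One array stands apart by sex-linked transcripts. Xist, the RNA that coats the inactive X chromosome, read 8.38 on PlGFCM replicate 2 and 3.58 to 3.95 on the other 5 arrays, and the Y-linked Uty, Kdm5d and Eif2s3y had their lowest levels there, at 7.5, 7.07 and 8.59. Results are therefore also given without PlGFCM replicate 2, a fit with a lone PlGFCM array that is assumed to vary like the others. T-cell markers had levels of the same range in both groups: Cd4 read 11.36 and 11.13 in PlGFCM and 11.29 and 11.22 in IL6_ConCM, and the median difference over 9 T-cell markers was -0.00. In bulk RNA, fewer cells of a type and less RNA per cell cannot be told apart.

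Few genes separated the treatments, and those that did were higher in PlGFCM. Passing genes numbered 5 of 22180 (0.0225%), all of them higher in PlGFCM: Hamp, Ctsw, Cpt1a, Il1a and Clec4e. The count of passing genes lower in PlGFCM was 0 (0.0%) by limma. At an unadjusted p under 0.05 there were 909 genes (4.1%), 549 of them higher (2.48%) and 360 lower (1.62%). This share is not above the threshold of 0.05 itself. Both arrays of a group lay on the same side of both arrays of the other for 30.1% of genes, 15.2% with PlGFCM higher and 14.9% with PlGFCM lower. If the arrays were exchangeable, 1 in 3 genes would separate in this way, so the observed share is not above that. The median difference over all genes was -0.003. A difference was positive for 49.1% of all genes and negative for 50.9%, the shares to set beside the list counts below. For 22070 genes (99.5%) the 95% interval of the difference lay within 2-fold in either direction. In 20 simulated data sets, 200 of 22180 genes were altered in each. There the fit recovered 88% of changes of 1 log2 unit but 21.2% of those of 0.5. The simulated errors were independent and normal, with variances drawn from the fit itself, so these shares hold only under its assumptions. With 200 altered genes an adjusted p is also easier to pass than with the 5 calls of the real arrays.

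**Figure D1:**
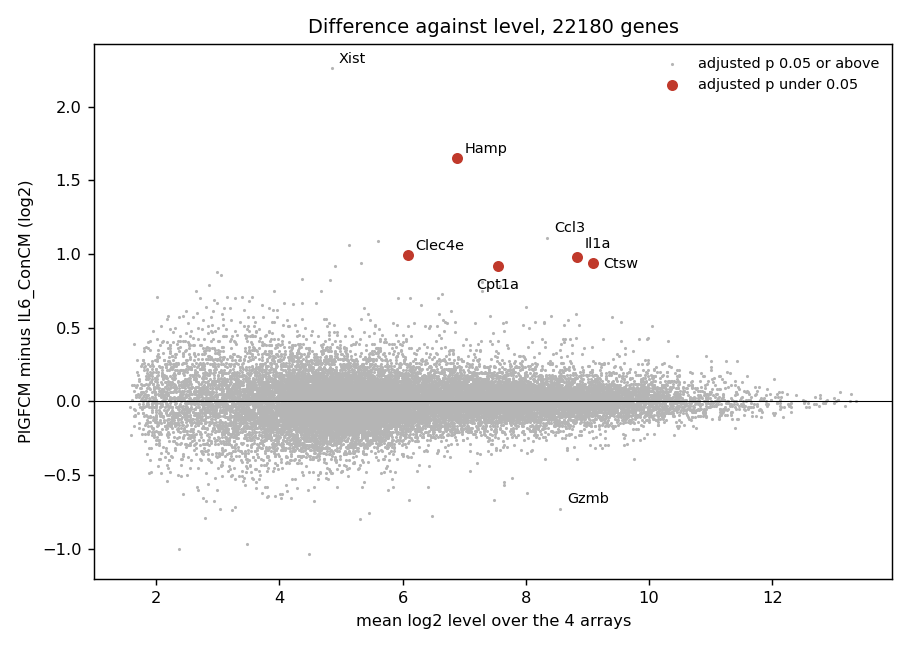
Difference between PlGFCM and IL6_ConCM (log2, vertical axis) against the mean log2 level over the 4 arrays (horizontal axis) for 22180 genes. The 5 red points, all above 0, are the genes that passed; Xist, high on 1 array only, lies above all of them, and Gzmb is the labelled gene below 0.

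Hamp showed the largest difference among the passing genes. Its level was 7.91 and 7.52 in PlGFCM, 6.27 and 5.86 in IL6_ConCM, and 5.41 and 5.13 in ConCM. The ConCM levels lay below the array medians of 5.47 to 5.51. The 3 groups do not overlap, and Hamp was 3.14-fold higher in PlGFCM than in IL6_ConCM (difference 1.65 ± 0.16 SE, 95% interval 1.29 to 2.01, limma adjusted p = 0.00889, n = 2 arrays a group). The probe set of Hamp2, its close paralog, read 4.14 and 4.17 in PlGFCM against 4.41 and 4.16 in IL6_ConCM, a difference of -0.13 that did not pass. Hepcidin acts by removing the iron exporter ferroportin from the cell surface. The ferroportin gene, Slc40a1, read 4.93 and 5.18 in PlGFCM against 5.68 and 5.58 in IL6_ConCM, near the array medians of 5.47 to 5.51. Both PlGFCM arrays were below, but the difference of -0.58 did not pass (limma adjusted p = 0.558). The array reads the RNA of Slc40a1 and not ferroportin at the cell surface. Of 17 measured iron-handling genes Hamp alone passed, and their median difference was -0.01. The Hamp promoter is shown because elements for both pathways lie side by side in it. The window covers the 250 bases before the transcription start at chr7:30944030-30944279 on the minus strand (RefSeq, GRCm38.p6), 5′ to 3′, with the matches in capitals.
Hamp: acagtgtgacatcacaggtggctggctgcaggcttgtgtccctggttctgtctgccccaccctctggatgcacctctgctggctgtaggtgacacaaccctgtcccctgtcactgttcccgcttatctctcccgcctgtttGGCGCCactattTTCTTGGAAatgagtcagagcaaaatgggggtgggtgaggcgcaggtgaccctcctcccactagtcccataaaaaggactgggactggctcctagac
The BMP-responsive letters GGCGCC begin 109 bases before the start and the STAT-type letters TTCNNNGAA, here TTCTTGGAA, begin 97 bases before it, without overlap. Searched on both strands of the 32851 RefSeq windows of 300 bases, 250 before and 50 after a start, GGCGCC was found in 11.9% and TTCNNNGAA in 8.3%. A match is a description of the letters and not of binding.

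Ctsw encodes cathepsin W, a cysteine protease of cytotoxic lymphocytes. It read 9.48 and 9.63 in PlGFCM, 8.65 and 8.57 in IL6_ConCM, and 8.23 and 8.18 in ConCM. The PlGFCM arrays were highest and the ConCM arrays lowest, and Ctsw was 1.92-fold higher in PlGFCM than in IL6_ConCM (0.94 ± 0.09 SE, limma adjusted p = 0.00873). Cpt1a encodes the carnitine palmitoyltransferase that admits long-chain fatty acids to mitochondria for oxidation. Its levels were 7.97 and 8.04 in PlGFCM, 7.13 and 7.05 in IL6_ConCM, and 6.97 and 7.0 in ConCM. The IL6_ConCM arrays thus lay close to ConCM, and the PlGFCM arrays stood 1.89-fold above IL6_ConCM (0.92 ± 0.10 SE, limma adjusted p = 0.0162).

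Il1a, the gene of the alarm cytokine interleukin-1α, read 9.45 and 9.21 in PlGFCM, 8.51 and 8.18 in IL6_ConCM, and 8.66 and 8.38 in ConCM. IL6_ConCM and ConCM overlapped, and PlGFCM was above both of them, 1.97-fold over IL6_ConCM (0.98 ± 0.12 SE, limma adjusted p = 0.0295). Clec4e encodes Mincle, a C-type lectin receptor for microbial glycolipids that is best known from macrophages. It read 6.55 and 6.61 in PlGFCM, 5.63 and 5.54 in IL6_ConCM, and 5.84 and 5.62 in ConCM. The IL6_ConCM levels lay near the array medians of 5.47 to 5.51. Clec4e was 1.99-fold higher in PlGFCM than in IL6_ConCM (0.99 ± 0.12 SE, limma adjusted p = 0.0295). Of 8 myeloid markers, 4 had a positive and 4 a negative difference. Their summed level was 9.89 and 9.80 in PlGFCM, 9.82 and 9.72 in IL6_ConCM and 9.80 and 9.89 in ConCM. Single markers went both ways, with none past the threshold. Cd14, the lipopolysaccharide co-receptor, differed by 0.70, Cybb by 0.40 and Adgre1 by 0.33. Clec7a, the β-glucan receptor dectin-1, differed by -0.52. Both PlGFCM arrays lay above both IL6_ConCM arrays in 3 of the 8 markers (15.2% of all genes) and below in 1 (14.9% of all genes). Of 7 neutrophil markers 0 passed, and their summed level was 7.81 and 8.0 in PlGFCM against 7.82 and 7.74 in IL6_ConCM. The part of myeloid cells and neutrophils in the Il1a and Clec4e differences was not tested.

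With each array left out in turn, all 5 differences stayed at 0.82 or more, but the calls were not kept. Without PlGFCM replicate 2 the differences were 1.84 for Hamp, 0.87 for Ctsw, 0.88 for Cpt1a, 1.1 for Il1a and 0.96 for Clec4e, each with a limma adjusted p of 0.71 at 1 residual degree of freedom. Without PlGFCM replicate 1 they were 1.46, 1.02, 0.95, 0.86 and 1.02 in the same order, and Xist was the only gene to pass. Without IL6_ConCM replicate 1, Hamp, Ctsw and Il1a passed (limma adjusted p = 0.019 each), and without IL6_ConCM replicate 2 the count was 0. After quantile normalization of the 4 arrays the count was also 0, with limma adjusted p = 0.0561 for Hamp, Ctsw and Cpt1a and 0.0675 for Il1a and Clec4e. A fit without an intensity trend and one over all 41345 probe sets gave 0 as well, against 909 genes at an unadjusted p under 0.05 in the reported fit and 941 and 1559 in these.

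**Figure D2:**
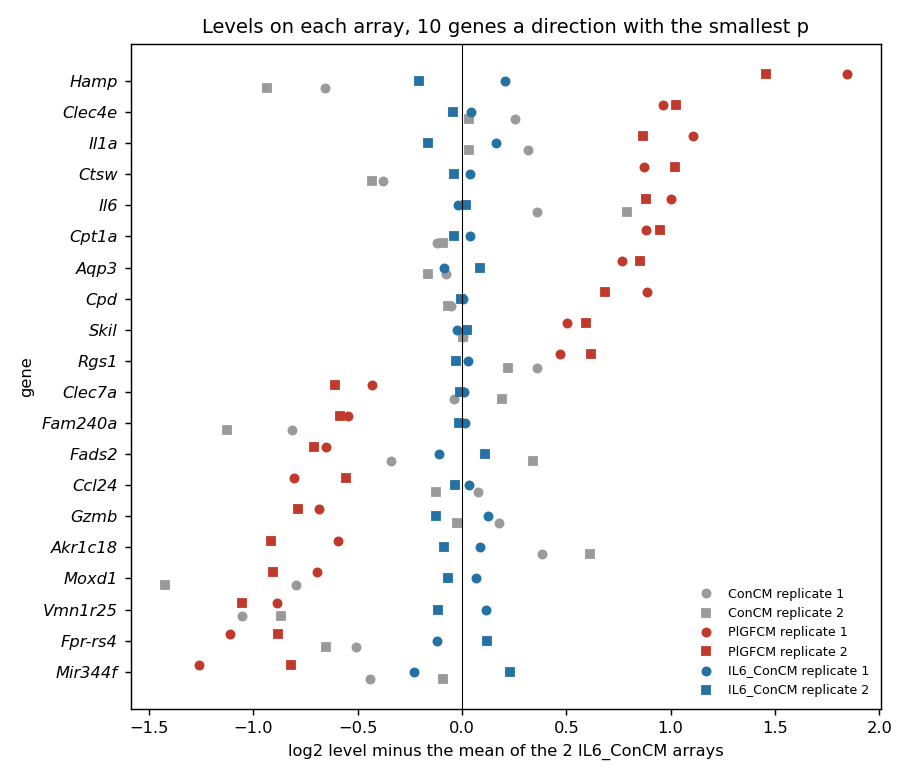
Levels on each of the 6 arrays for the 10 genes per direction with the smallest p, as log2 level minus the mean of the 2 IL6_ConCM arrays (horizontal axis). The red PlGFCM points of a gene lie together and away from the blue IL6_ConCM points at 0; the 5 passing genes are Hamp, Clec4e, Il1a, Ctsw and Cpt1a, and the grey ConCM points, which did not enter the fit, fall on either side.

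The next genes by p did not pass and are given as values. Il6 itself, the gene of the cytokine that one group had received as protein, read 5.86 and 5.74 in PlGFCM, 4.84 and 4.88 in IL6_ConCM, and 5.22 and 5.65 in ConCM. The IL6_ConCM arrays were the lowest of the 6, and the difference was 0.94 (limma adjusted p = 0.0598). Both IL6_ConCM levels lay below the array medians, which run from 5.47 to 5.51, so Il6 was a low-level gene. Aqp3, a water and glycerol channel, read 7.65 and 7.74 in PlGFCM against 6.80 and 6.97 in IL6_ConCM (0.81, limma adjusted p = 0.0515). Cpd, carboxypeptidase D, read 8.08 and 7.88 against 7.20 and 7.19 (0.78, limma adjusted p = 0.0515). Aqp3 and Cpd passed after subtraction of array medians (limma adjusted p = 0.0186 and 0.0282), with both filters on low genes, with a robust prior and when all 6 arrays were fitted. Rgs1, which shortens G-protein signalling from chemokine receptors, differed by 0.54 (limma adjusted p = 0.0749).

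In the other direction Gzmb came closest to passing. Granzyme B, the killing protease of cytotoxic lymphocytes, read 8.23 and 8.13 in PlGFCM, 9.04 and 8.79 in IL6_ConCM, and 9.09 and 8.89 in ConCM. IL6_ConCM and ConCM overlapped and PlGFCM lay below both, by 0.73 log2 units against IL6_ConCM (difference -0.73 ± 0.10 SE, limma adjusted p = 0.0598). Gzmb passed after subtraction of array medians (limma adjusted p = 0.0473) and after low genes were left out at the median (0.028) or the 25th percentile (0.0242) of all levels. Ccl24, an eosinophil-attracting chemokine, read 7.02 and 7.27 in PlGFCM against 7.86 and 7.79 in IL6_ConCM (-0.67, limma adjusted p = 0.144). Fads2, a desaturase of polyunsaturated fatty acids, differed by -0.67, and Akr1c18, a progesterone-metabolizing enzyme, by -0.76. Moxd1, Fam240a and Clec7a differed by -0.80, -0.57 and -0.52. The remaining 3 genes in this direction, Vmn1r25 (-0.97), Fpr-rs4 (-1.0) and Mir344f (-1.04), belong to families of similar sequence and lay at or below a level of 5.23 on all 6 arrays, so their gene assignment is uncertain.

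Differences of at least 2-fold were found for 7 genes (0.0316%), 5 higher and 2 lower in PlGFCM. Hamp was the only one of them that passed. Ccl3, a chemokine that attracts monocytes and T cells, read 8.43 and 9.36 in PlGFCM against 7.89 and 7.68 in IL6_ConCM (1.11, limma adjusted p = 0.265), and without PlGFCM replicate 2 the difference was 0.65. Ctla2b, a protease inhibitor-like gene with near-identical relatives, read 5.15 and 6.18 against 4.74 and 4.46. Arhgap6, a GTPase-activating protein, read 5.35 and 6.94 against 4.98 and 5.14. These 3 genes were highest on PlGFCM replicate 2, the array with Xist, whose own difference of 2.26 became -0.13 without it. Mir344f and Fpr-rs4 were the 2 lower genes.

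Genes of the SMAD pathway had small, mostly positive differences. Of 31 measured genes of a list of 32 SMAD, TGF-β and BMP genes, 1 passed (Hamp) and 0 passed in the lower direction. A positive difference was seen for 27 of the 31, where 49.1% of all genes had one. In 20 both PlGFCM arrays lay above both IL6_ConCM arrays, where 15.2% of all genes did. All gene lists were chosen with earlier results of these data known, so such counts are a description and not a test. The median was 0.14, against -0.003 over all genes; it was 0.18 without PlGFCM replicate 2 and 0.13 without PlGFCM replicate 1. On PlGFCM replicate 1 by itself, 23 of the 31 lay above both IL6_ConCM arrays (34.5% of all genes). Skil, the SnoN corepressor of SMADs, read 8.92 and 9.01 in PlGFCM, 8.39 and 8.44 in IL6_ConCM and 8.42 in both ConCM arrays (0.55, limma adjusted p = 0.102). Ski, its relative, read 8.81 and 8.82 against 8.41 and 8.42 (0.40, limma adjusted p = 0.294). In both corepressor genes IL6_ConCM stood at the ConCM level.

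Pmepa1, a membrane protein that sequesters SMADs, read 8.84 and 8.91 in PlGFCM against 8.44 and 8.27 in IL6_ConCM (0.52, limma adjusted p = 0.181). Ldlrad4, another such inhibitor, read 8.46 and 8.36 against 7.73 and 8.02 (0.54, limma adjusted p = 0.294). Smad7, the inhibitory SMAD that blocks TGF-β receptors, read 8.41 and 8.35 against 8.0 and 8.1 (0.33, limma adjusted p = 0.724). The groups do not overlap in any of the 3, and none of them passed. Among receptors, the type II BMP receptor Bmpr2 differed by 0.42, and by 0.21 without IL6_ConCM replicate 1. Among signal carriers, Smad3 of the TGF-β arm differed by 0.26, Smad5 of the BMP arm by 0.19 and the shared Smad4 by 0.13. The typical BMP targets Id1, Id3 and Smad6 differed by 0.05, -0.05 and -0.00, and Bambi, a decoy receptor, by -0.11. Of the 20 genes of this list with a RefSeq window, 8 (40.0%) hold GGCGCC, where 13.4% of all genes with a window do. The share was 20.0% in the cholesterol synthesis list and 19.0% in the IL-6 and STAT3 list. As for Hamp, a match describes letters and not binding.

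**Figure D3:**
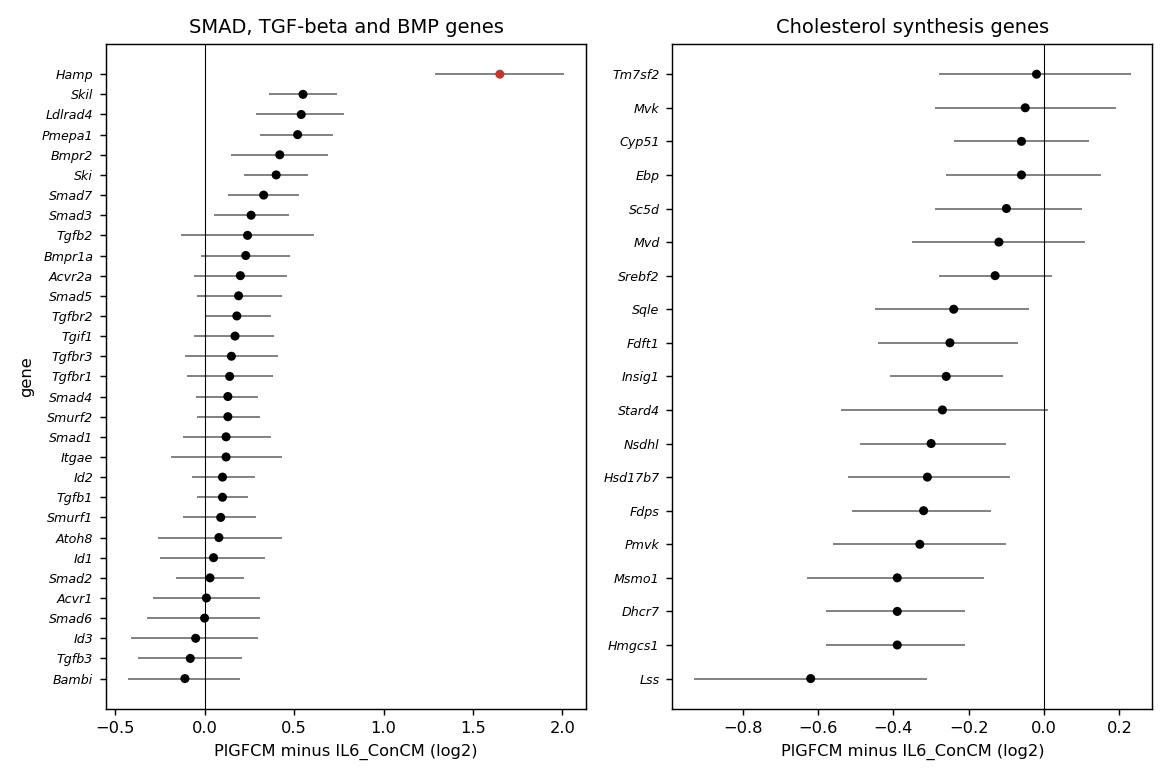
Difference between PlGFCM and IL6_ConCM (log2, horizontal axis) with its 95% interval for 31 SMAD, TGF-β and BMP genes (left) and 19 cholesterol synthesis genes (right). Hamp, in red, is the gene that passed; on the left 27 points lie above 0 and on the right all 19 lie below it, most of them by less than 0.4.

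Cholesterol synthesis genes had negative differences. Of 19 measured genes of a list of 23, 0 passed, all 19 had a negative difference (50.9% of all genes did) and in 14 both PlGFCM arrays lay below both IL6_ConCM arrays (14.9% of all genes). An unadjusted p under 0.05 was reached by 11 of the 19 (1.62% of all genes in this direction). This list too was chosen with earlier results known, so its counts are a description and not a test. The median was -0.26, and it was -0.17 without PlGFCM replicate 2, with 2 genes then positive, and -0.34 without PlGFCM replicate 1. The 2 PlGFCM arrays were thus unequal: relative to each gene's mean over 6 arrays, the list's median was -0.09 on replicate 1 and -0.30 on replicate 2, while IL6_ConCM stood at 0.05 and 0.07 and ConCM at 0.09 and 0.16. PlGFCM replicate 1 lay below both IL6_ConCM arrays in 15 of the 19 genes (33.8% of all genes).

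Lss, lanosterol synthase, which closes the first sterol ring system, had the largest difference of the list. It read 7.95 and 7.46 in PlGFCM, 8.33 and 8.32 in IL6_ConCM, and 8.36 and 8.46 in ConCM (difference -0.62 ± 0.14 SE, limma adjusted p = 0.408). Without PlGFCM replicate 2 it was -0.37. Hmgcs1, HMG-CoA synthase at the head of the mevalonate pathway, read 9.66 and 9.45 in PlGFCM against 9.90 and 9.99 in IL6_ConCM (-0.39, limma adjusted p = 0.325). Dhcr7, which makes cholesterol from 7-dehydrocholesterol, read 8.67 and 8.60 against 9.0 and 9.06 (-0.39, limma adjusted p = 0.294). In these 3 genes the mean of IL6_ConCM lay within 0.2 of that of ConCM, and both PlGFCM arrays lay below all the others. Msmo1, a sterol demethylating oxidase, differed by -0.39, Pmvk, a mevalonate pathway kinase, by -0.33 and Fdps, farnesyl diphosphate synthase, by -0.32. Insig1, the sterol sensor that holds SREBP in the endoplasmic reticulum, differed by -0.26, and Srebf2, the gene of the SREBP2 activator, by -0.13. Tm7sf2, Mvk, Cyp51 and Ebp differed by -0.02 to -0.06.

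The promoters of the mevalonate and sterol ends of the pathway, Hmgcs1 at chr13:119690101-119690350 and Lss at chr10:76531355-76531604, both on the plus strand (RefSeq, GRCm38.p6), are shown for the elements that SREBP2 and its partner NF-Y are known to use. Capitals mark TCACNCCAC, a sterol regulatory element, and CCAAT, read on the other strand as ATTGG, in the 250 bases before the start, 5′ to 3′.
Hmgcs1: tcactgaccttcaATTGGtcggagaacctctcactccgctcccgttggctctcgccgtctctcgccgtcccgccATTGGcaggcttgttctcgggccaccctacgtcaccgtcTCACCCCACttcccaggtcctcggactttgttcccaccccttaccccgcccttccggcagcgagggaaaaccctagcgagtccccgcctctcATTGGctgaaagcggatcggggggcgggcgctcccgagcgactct
Lss: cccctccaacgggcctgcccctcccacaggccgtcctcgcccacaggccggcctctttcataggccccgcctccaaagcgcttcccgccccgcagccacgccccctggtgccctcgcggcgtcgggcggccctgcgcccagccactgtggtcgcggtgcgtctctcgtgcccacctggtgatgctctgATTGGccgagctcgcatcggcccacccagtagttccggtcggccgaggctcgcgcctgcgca
The Hmgcs1 window holds TCACCCCAC 137 bases before the start and CCAAT boxes that begin 237, 176 and 45 bases before it. The Lss window holds a CCAAT box 62 bases before the start and no TCACNCCAC. Of the 15 measured cholesterol genes with a window, 15 hold CCAAT and 1 holds TCACNCCAC on either strand, where 41.1% and 1.44% of all genes with a window do. These letters describe the windows, and the arrays do not measure binding.

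The fatty acid oxidation list had a median near 0 although Cpt1a passed. Of 15 measured genes of 16, 1 passed, 9 had a positive difference and the median was 0.01. The carrier that works next to Cpt1a had the next largest value: Slc25a20, the carnitine-acylcarnitine translocase, read 8.34 and 8.25 in PlGFCM, 7.81 and 7.78 in IL6_ConCM, and 7.80 and 7.82 in ConCM (0.50, limma adjusted p = 0.197). Its IL6_ConCM and ConCM arrays lay together, as those of Cpt1a did. The matrix enzymes had smaller values of either sign, 0.24 for Acadl, a long-chain acyl-CoA dehydrogenase, and -0.16 for Hadh, a hydroxyacyl-CoA dehydrogenase.

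In the IL-1 family 10 of 13 listed genes were measured, 1 passed (Il1a), 7 had a positive difference and in 4 PlGFCM lay above IL6_ConCM on all arrays (15.2% of all genes). The median was 0.20; it was 0.29 without PlGFCM replicate 2 and 0.07 without PlGFCM replicate 1. Il1b, the inflammasome-processed relative of Il1a, read 9.78 and 9.58 in PlGFCM, 9.05 and 9.17 in IL6_ConCM, and 9.02 and 9.12 in ConCM (0.57, limma adjusted p = 0.102). Il1rn, the gene of the receptor antagonist, read 7.66 and 7.85 against 7.30 and 7.39 (0.41, limma adjusted p = 0.652). Agonist and antagonist genes thus both lay above IL6_ConCM. The receptor Il1r1 differed by -0.13, with 6.09 and 5.95 against 6.04 and 6.27, and overlapped.

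None of the genes on the IL-6 and STAT3 list passed, a list that does not include Hamp. Of 23 measured genes of a list of 24 IL-6 and STAT3 genes, 0 passed; 18 differences were positive, 12 genes had both PlGFCM arrays above both IL6_ConCM arrays (15.2% of all genes) and the median was 0.08. Socs3 read 9.87 and 9.69 in PlGFCM and 9.61 and 9.76 in IL6_ConCM, and the groups overlapped at a difference of 0.10 (95% interval -0.09 to 0.29). Stat3 differed by 0.10 (-0.02 to 0.23) and Il6ra, the ligand-binding receptor, by 0.05 (-0.10 to 0.21). For these 3 genes the intervals leave room for a difference of no more than 0.29 log2 units in favour of PlGFCM and 0.10 in favour of IL6_ConCM. Il6st, the gp130 signal chain, read 10.41 and 10.36 against 10.10 and 10.27 (0.20), and Jak2 differed by 0.16, neither past the threshold. Socs3 in ConCM read 9.37 and 9.21, below all 4 arrays of the treated groups.

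Among Th17 genes 23 of 25 were measured, 0 passed, 15 had a positive difference and in 11 both PlGFCM arrays lay above both IL6_ConCM arrays (15.2% of all genes). The median was 0.08, and 0.13 without PlGFCM replicate 2. The cytokines of the lineage did not pass. Il17a read 6.14 and 5.90 in PlGFCM against 5.86 and 5.65 in IL6_ConCM (0.26, 95% interval -0.05 to 0.57). Il17f read 7.80 and 7.64 against 7.16 and 7.62 (0.33, 0.01 to 0.64). Il21 read 10.01 and 10.34 against 10.52 and 10.02 (-0.10, -0.42 to 0.22). For Il21 the groups overlapped, and for Il17a and Il17f both PlGFCM arrays lay above both IL6_ConCM arrays. Il10 and the transcription factors Maf and Ahr had larger values. Other factors of the list had smaller ones, from Irf4 at 0.27 to Hif1a at -0.06, with Rora at 0.08 and Batf at 0.04. c-Maf (Maf), an activator of Il10, read 8.41 and 8.23 against 7.48 and 7.88 (0.64, limma adjusted p = 0.294).

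The aryl hydrocarbon receptor Ahr read 8.56 and 8.57 in PlGFCM against 7.84 and 8.20 in IL6_ConCM (0.54, limma adjusted p = 0.33). Il10, an anti-inflammatory cytokine, read 7.12 and 7.14 against 6.33 and 6.83 (0.54, limma adjusted p = 0.724). In Maf, Ahr and Il10 alike IL6_ConCM replicate 1 was the lower IL6_ConCM array, and without it the differences were 0.44, 0.36 and 0.30. All 3 were higher on every treated array than on the ConCM arrays, except Maf on IL6_ConCM replicate 1, which read 7.48 beside 7.31 and 7.62. Irf4, an activation-induced factor needed for Th17 cells, differed by 0.27.

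**Figure D4:**
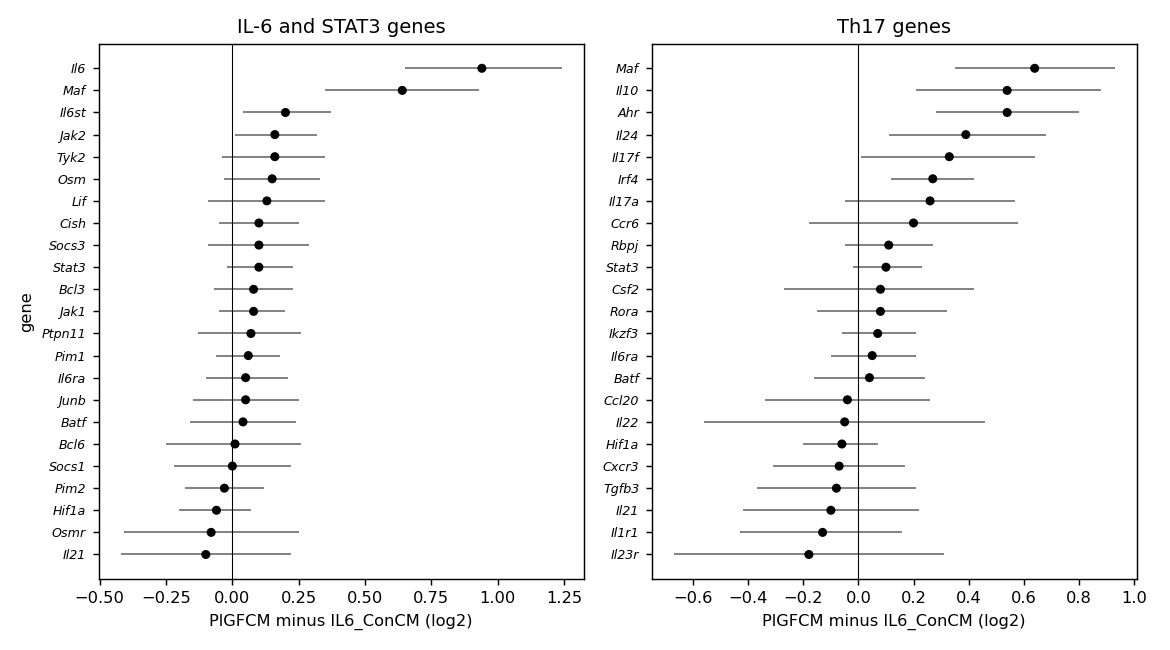
Difference between PlGFCM and IL6_ConCM (log2, horizontal axis) with its 95% interval for 23 IL-6 and STAT3 genes (left) and 23 Th17 genes (right). No gene passed; Il6 (0.94), Maf (0.64), Il10 (0.54) and Ahr (0.54) lie furthest to the right, and Socs3 and Stat3 (0.10 each) lie near 0.

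Regulatory T-cell genes were all measured, 20 of 20. None passed (0), 17 had a positive difference, in 11 the PlGFCM arrays lay above both IL6_ConCM arrays (15.2% of all genes) and 7 were higher at an unadjusted p under 0.05 (2.48% of all genes); the median was 0.15, and 0.19 without PlGFCM replicate 2. Entpd1 and Nt5e, the CD39 and CD73 enzymes that turn extracellular ATP into adenosine, had the largest values. Entpd1 read 7.68 and 7.73 in PlGFCM against 7.03 and 7.22 in IL6_ConCM (0.58, limma adjusted p = 0.199). Nt5e read 9.23 and 8.97 against 8.25 and 8.79 (0.59, limma adjusted p = 0.652), and ConCM read 8.30 and 8.87, as wide as IL6_ConCM. Gpr83, a receptor enriched in regulatory T cells, differed by 0.40. Without IL6_ConCM replicate 1, Nt5e and Gpr83 differed by 0.32 and 0.23. Foxp3, the factor that defines the lineage, had a mean of 11.02 ± 0.09 (SD, n = 2) in PlGFCM and 10.88 ± 0.17 (SD, n = 2) in IL6_ConCM, and the groups overlapped (0.14).

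Th1 and cytotoxic genes were split. Of 23 measured, 1 passed (Ctsw), 15 differences were positive (49.1% of all genes) and 8 negative (50.9% of all genes). The median was 0.11, or 0.05 without IL6_ConCM replicate 2 and 0.06 without PlGFCM replicate 1. Ctsw and Gzmb, proteases of the same cell programme, lay on opposite sides of IL6_ConCM, at 0.94 and -0.73. Ccl5, the RANTES chemokine, read 9.36 and 8.89 in PlGFCM against 8.48 and 8.73 in IL6_ConCM (0.52, limma adjusted p = 0.674). Ifng, the Th1 cytokine, differed by 0.53 without passing, and by 0.23 without IL6_ConCM replicate 2. The lineage factors Tbx21 and Eomes differed by 0.26 (0.05 without IL6_ConCM replicate 2) and 0.10, and Gata3 of the Th2 lineage by -0.11. Of 8 NK-cell and CD8 T-cell markers, 6 had a negative difference and the median was -0.06; their summed level was 9.52 and 9.67 in PlGFCM and 9.76 and 9.55 in IL6_ConCM, and their part in the Ctsw and Gzmb values was not tested.

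Activation genes had small, mostly positive differences. Of 18 NF-κB genes, 0 passed and 17 had a positive difference, where 49.1% of all genes had one. The median was 0.11, and 0.07 without PlGFCM replicate 1. The feedback inhibitors Tnip1, Tnfaip3 and Nfkbia differed by 0.30, 0.21 and 0.19. Of 18 genes of T-cell activation and IL-2 signalling, 0 passed and 16 had a positive difference, again beside 49.1% of all genes (median 0.10). Stat5a and Stat5b, which carry the IL-2 signal, differed by 0.34 and 0.25. Irf8, a factor shared with myeloid cells, read 10.20 on both PlGFCM arrays against 9.92 and 9.62 in IL6_ConCM (0.43, limma adjusted p = 0.325), and 10.35 and 10.27 in ConCM. Its IL6_ConCM arrays were the low ones. Among 14 matrix and protease genes Ctsw again passed; Timp1, an inhibitor of metalloproteinases, read 6.58 and 6.67 against 6.03 and 5.94 (0.65, limma adjusted p = 0.197), and Emp1, a tetraspan membrane protein, read 8.70 and 8.69 against 8.05 and 8.18 (0.58, limma adjusted p = 0.102). Timp1 and Emp1 followed the order of Ctsw, with ConCM lowest at 5.52 and 5.50 for Timp1 and 7.33 and 7.17 for Emp1.

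None of the receptor genes for PlGF passed. Of 12 VEGF and PlGF ligands and receptors, 0 passed and the median was -0.01. Flt1 read 5.60 and 5.32 in PlGFCM against 5.22 and 5.33 in IL6_ConCM (0.18), near the array medians of 5.47 to 5.51. The co-receptor Nrp1 read 7.18 and 6.77 against 6.42 and 6.83 (0.35), and the groups overlapped in both genes. Kdr, the main VEGF receptor, read 6.05 and 6.24 against 5.82 and 5.80 (0.34). Pgf, the mouse gene of PlGF, read 5.77 and 5.42 against 5.62 and 5.95 (-0.19). These transcripts report the T cells' own RNA and not the protein in the medium.

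**Figure D5:**
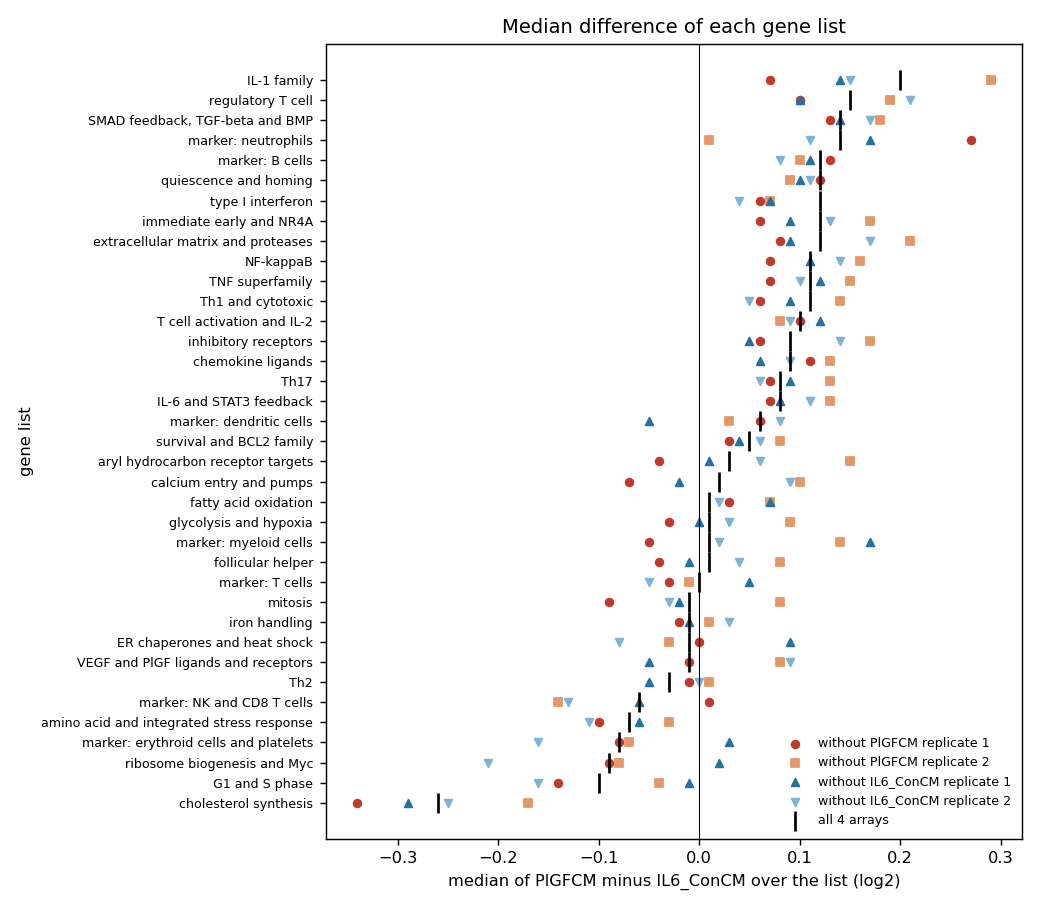
Median difference between PlGFCM and IL6_ConCM (log2, horizontal axis) over each gene list, with all 4 arrays (black bars) and with each array left out (coloured points). The IL-1 family (0.20), regulatory T-cell (0.15), SMAD and neutrophil-marker (0.14 each) lists lie highest and cholesterol synthesis (-0.26) lowest. The sign is the same whichever array is left out in each of these lists, and also in others such as NF-κB and Th17. The neutrophil-marker median was only 0.01 without PlGFCM replicate 2, and these markers were low, with a median level of 4.42.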

How the data were processed

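RNA of 6 samples was hybridised to Affymetrix whole-transcript arrays, per the labels' protocols. The deposited table holds log2 levels of 41345 probe sets; the submitters' processing notes name Transcriptome Analysis Console. Its version, the normalization and the genome build, not given in the sources used here, remain unknown. That the scale is log2 was judged from the values, whose array medians run from 5.47 to 5.51. Arrays have no read depth, so their number limits the precision.

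The platform annotation gives 1 symbol to 23521 probe sets, several to 1814 (not used) and none to 16010. RefSeq held the gene IDs of 23328 of them and changed 0 symbols. Where a gene had several probe sets (1082 genes), the one with the highest mean over the 6 arrays was taken. The 4 arrays were fitted with limma 3.58.1 in R 4.3.3 (lmFit, eBayes with an intensity trend, 2 residual degrees of freedom, median prior 8.61), with Benjamini-Hochberg adjustment over 22180 genes. The fit was tested on data simulated with normal errors and variances drawn from the fit itself. There 5.14% of calls were false, a rate that holds under these assumptions. Alternatives were other normalizations, low-level filters, probe set rules, priors, all 6 arrays, array weights, a replicate block, an unadjusted p with a 2-fold change, and each array left out.

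Named genes are, per direction, the passing genes filled to 10 by smallest p, up to 4 genes per list by p, and a fixed set around IL-6, PlGF and T-cell fates. Hamp2, Ctla2b, Arhgap6, Ldlrad4, Bmpr2 and other list members outside the rule were named after their values were seen. Predicted gene models were counted, not named. The comparison, its members and the gene lists were chosen with earlier results of these data known. Lists are described by counts and medians, with no test.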

Additional observations from a re-analysis of the deposited data

How the results depend on the processing

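The count of 5 passing genes was kept when probe sets of a gene were averaged and with array weights, and was 7 with a robust prior and with all 6 arrays. It was 10 after subtraction of array medians, and 9 or 10 when genes below the median or the 25th percentile of all levels were dropped; these 3 settings called the same 5 genes again and Gzmb as the 1 lower gene. It was 0 after quantile normalization, 0 with all probe sets tested singly and 0 without an intensity trend, where limma gave 1071, 1559 and 941 at an unadjusted p under 0.05. Deviations of same-numbered arrays correlated at 0.033 between PlGFCM and IL6_ConCM, 0.111 between ConCM and IL6_ConCM and -0.039 between ConCM and PlGFCM. With 2 arrays a group, these values cannot show whether the numbers pair the samples. With the replicate number as a block the count of passing genes was 3 (Hamp, Il1a and Ctsw). Leaving out 1 array gave 0 to 3, with fewer samples and 1 residual degree of freedom. A 2-fold change together with an unadjusted p under 0.05 was met by 6 genes. Groups that do not overlap made up 28.7% to 32.5% of genes in 5 settings added after seeing the data, against 30.1%. Of 115 genes named in the text and followed across settings, 15 changed sign in some setting, and these had not passed. Leaving out each array in turn gave -0.07 to 0.16 for Id1, -0.29 to 0.18 for Id3, -0.25 to 0.03 for Bambi, -0.07 to 0.06 for Smad6, -0.35 to 0.15 for Il21, -0.28 to 0.06 for Gata3, -0.11 to 0.31 for Eomes, -0.12 to 0.11 for Cd4, -0.12 to 0.01 for Ebp, -0.13 to 0.02 for Mvk and -0.11 to 0.07 for Tm7sf2. For the sex-linked genes it gave -0.13 to 4.66 (Xist), -0.49 to 0.04 (Uty), -0.48 to 0.17 (Kdm5d) and -0.39 to 0.0 (Eif2s3y), with the turned value without PlGFCM replicate 2. Smad6 was 0.02 after quantile normalization and 0.0 after subtraction of medians. The medians of 15 of 38 lists changed sign in some setting. The cause was not tested.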

Other observations

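Growth genes lay slightly lower in PlGFCM than in IL6_ConCM. A negative difference was seen for 50.9% of all genes. Of 24 measured genes of ribosome biogenesis and Myc, 0 passed and 21 had one (median -0.09). Of 26 genes of G1 and S phase, 0 passed and 21 had one (median -0.10). Without IL6_ConCM replicate 1 these medians were 0.02 and -0.01, so they rest on that array. Npm1, a nucleolar chaperone, differed by -0.18, and Uhrf1 and Mcm3, which work at the replication fork, by -0.25 and -0.16. Mitosis genes had a median of -0.01, with Ccna2 at -0.33 and Ccnb2 at 0.32. In quiescence and homing 15 of 19 genes had a positive difference (median 0.12), where 49.1% of all genes had one. The 15 include Klf2 (0.26), S1pr1 (0.17) and Ccr7 (0.17), a factor and 2 receptors that keep T cells in circulation and lymph nodes.

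Type I interferon genes were above IL6_ConCM in 17 of 25 cases (49.1% of all genes), with 0 passing. Their median was 0.12, and it was 0.04 to 0.07 with each array left out. In 7 of the 25 both PlGFCM arrays lay above both IL6_ConCM arrays (15.2% of all genes). Their array medians relative to each gene's mean were -0.05 and -0.08 in PlGFCM, -0.15 in both IL6_ConCM arrays, and 0.28 and 0.12 in ConCM. Irf9, the DNA-binding part of the interferon-activated complex, read 9.25 and 9.27 in PlGFCM against 8.99 and 9.01 in IL6_ConCM (0.26). The immediate early list had 18 of 20 positive differences (49.1% of all genes). Its median was 0.12, and 0.06 without PlGFCM replicate 1, with the orphan receptors Nr4a2 and Nr4a3 at 0.51 and 0.36. Amino acid and stress-response genes had a median of -0.07, with the transporters Slc7a11 at 0.56 (0.25 without PlGFCM replicate 1) and Slc7a3 at -0.49. Among inhibitory receptors Ceacam1 differed by 0.59 (0.28 without PlGFCM replicate 1) and Cd274, the gene of PD-L1, by 0.22. Il9 differed by 0.48 and the T-cell co-stimulators Tnfrsf25 and Tnfrsf4 by 0.31 and 0.15. B-cell markers differed in both directions, with Ms4a1 (CD20) at -0.53, Fcer2a at -0.38 and Pax5 at 0.27, and their summed level was 9.49 and 9.50 in PlGFCM and 9.48 and 9.52 in IL6_ConCM. None of the genes named here passed.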
